A study of Mus musculus with 27 samples.

Results

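Broad domains of histone H3 lysine 4 (H3K4) methylation over coding promoters were examined in embryonic mouse hearts that lack *Kmt2d* in the myocardium. Domains were chosen by width, a value measured in these libraries, and by annotation: a region of the merged list of H3K4me1, H3K4me2 and H3K4me3 peaks was taken when it spanned 8000 bp or more and held at least 1 protein-coding transcription start site (TSS). Of 358833 merged regions, 1771 met both conditions (0.494%). They held the TSS of 2027 of the 15544 coding genes with a coding TSS in any merged region. The domains covered 22.7 Mb, or 7.36% of all merged sequence. Width therefore carries no test below, and it is given as a description.

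The libraries came from E11.5 hearts on a C57BL/6 background. Control embryos were *Tnnt2::Cre;Kmt2d fl/+;mTmG/+*, and mutant embryos were *Tnnt2::Cre;Kmt2d fl/fl;mTmG/+*, so that both genotypes carried the Cre driver, the membrane reporter mTmG and at least 1 floxed *Kmt2d* allele. For each genotype, 3 pools of 30 hearts were divided into an input and immunoprecipitations of H3K4me1, H3K4me2 and H3K4me3. *Tnnt2::Cre* acts in heart muscle cells, and whole hearts also hold endocardial, epicardial, mesenchymal and blood cells in which *Kmt2d* is not targeted. The deposited lists give the regions in which H3K4me1 or H3K4me2 was called lower in mutants than in controls, pooled over replicates and without values per sample, so the spread between pools is unknown here. Regions with changed H3K4me3, and the KMT2D ChIP-Exo libraries of cardiomyocytes derived from embryonic stem cells, were not analysed here.

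KMT2D transfers methyl groups to H3K4. In general H3K4me1 is found at enhancers, H3K4me3 at active promoters, and H3K4me2 at elements of both kinds. At most genes the methylated stretch around the TSS is short. Broad stretches that run far into the gene are known at genes that define a cell type, such as lineage transcription factors, and the promoters of many housekeeping and developmental genes are rich in the dinucleotide CpG, at which CXXC-domain proteins recruit other H3K4 methyltransferases.

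The sequences just before the TSS show how different the promoters inside these domains are. Each line gives the 100 bases before the most upstream coding TSS of the gene inside its domain, 5′ to 3′ on the coding strand of mouse assembly NCBIM37 (mm9), with each CpG in capitals. The first 4 genes lie in domains listed with decreased H3K4me2 only: the cardiac transcription factors *Gata4* (chr14:63890530-63890629 on the minus strand) and *Hand2* (chr8:59799680-59799779 on the plus strand), the GATA cofactor *Zfpm1* (chr8:124805939-124806038 on the plus strand) and the histone gene *Hist1h4i* (chr13:22133222-22133321 on the minus strand). *Mical2* (chr7:119369270-119369369 on the plus strand), which encodes an actin-oxidising enzyme, lies in the widest domain, listed for both marks. *Ryr2* (chr13:12199213-12199312 on the minus strand), the calcium release channel of the sarcoplasmic reticulum, lies in a domain listed for H3K4me1 only. The last 3 are contractile protein genes in domains of neither list: *Myh6* (chr14:55585765-55585864 on the minus strand), *Tnnt2* (chr1:137737352-137737451 on the plus strand) and *Myl7* (chr11:5798786-5798885 on the minus strand).
Gata4: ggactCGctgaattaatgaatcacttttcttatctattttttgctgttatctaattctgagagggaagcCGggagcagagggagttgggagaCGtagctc
Hand2: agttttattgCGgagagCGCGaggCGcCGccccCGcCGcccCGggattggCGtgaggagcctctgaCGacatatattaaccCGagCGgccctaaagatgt
Zfpm1: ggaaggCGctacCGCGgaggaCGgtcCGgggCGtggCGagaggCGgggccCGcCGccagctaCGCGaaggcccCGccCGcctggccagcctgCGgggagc
Hist1h4i: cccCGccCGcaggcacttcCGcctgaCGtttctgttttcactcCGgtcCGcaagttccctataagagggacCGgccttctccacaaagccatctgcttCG
Mical2: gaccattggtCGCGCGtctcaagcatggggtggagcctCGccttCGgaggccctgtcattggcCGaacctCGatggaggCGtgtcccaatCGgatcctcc
Ryr2: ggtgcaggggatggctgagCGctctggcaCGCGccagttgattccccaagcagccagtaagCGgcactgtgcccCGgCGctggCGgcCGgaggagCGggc
Myh6: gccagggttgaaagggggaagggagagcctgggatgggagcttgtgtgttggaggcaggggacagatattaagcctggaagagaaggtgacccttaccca
Tnnt2: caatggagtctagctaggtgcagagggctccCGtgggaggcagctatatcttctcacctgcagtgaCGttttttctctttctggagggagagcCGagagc
Myl7: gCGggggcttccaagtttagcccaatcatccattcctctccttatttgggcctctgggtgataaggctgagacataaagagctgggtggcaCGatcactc

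CpG were counted in these 100 bases. *Zfpm1* had 15 and *Hand2* 12, *Mical2* and *Ryr2* had 9 each, and *Hist1h4i* had 8. *Gata4* and *Tnnt2* had 3, *Myl7* had 2, and *Myh6* had 0. Of the genes shown from listed domains, only *Gata4* was CpG-poor here, at the most upstream of 5 coding TSS in its domain. Its other starts are not shown. The 3 contractile genes shown from domains of neither list were CpG-poor. These 3 do not stand for all domains in neither list, whose CpG content is given below.

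A set of 6 DNA words was searched in the 250 bases before the TSS of each domain's main gene, on both strands: the TATA box TATAAA, the GATA core AGATAA, the CCAAT box CCAAT, the E-box CACGTG, the GC box GGGCGG and the CArG box. The main gene was the one with most coding transcripts starting inside, and the GC box and the E-box each contain a CpG. The GC box was found in 65.7% of domains with decreased H3K4me2 only (95% Wilson interval 62.2% to 69.1%), in 57.9% of domains in neither list (54.9% to 61.0%) and in 40.1% of 22373 annotated coding genes, counted by gene identifier and with no unknown base before the TSS (the annotation has 22238 distinct coding symbols). The intervals of the first pair did not overlap. The TATA box was found in 8.04%, 5.99% and 12.3% of the same sets, and the GATA core in 7.62%, 6.69% and 9.31%. For the TATA box, GATA core, CCAAT box, E-box and CArG box, the intervals of the H3K4me2-only and neither domains overlapped. The CCAAT box was found in 35.0%, 33.1% and 35.0%, the E-box in 9.87%, 8.39% and 6.53%, and the CArG box in 1.55%, 1.90% and 1.33%.

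Of the 1771 domains, 710 were in the list of decreased H3K4me2 only (40.1%), 45 in the list of decreased H3K4me1 only (2.54%), 14 in both (0.791%) and 1002 in neither (56.6%). The H3K4me2 list thus held 724 domains, or 40.9% (95% Wilson interval 38.6% to 43.2%), against 1.87% of all merged regions. The H3K4me1 list held 59, or 3.33% (2.59% to 4.27%), against 0.761% of all merged regions, and the shared list held 0.791% against 0.0479%. The domains made up 10.8% of all H3K4me2-decreased regions and 35.6% of their base pairs, but 2.16% of H3K4me1-decreased regions and 14.96% of their base pairs. Intervals here cover the number of regions only, treat regions as independent draws and contain nothing of the variation between pools. In whole hearts, fewer cells of a type and less of a mark per cell cannot be told apart.

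The closest comparison was with the 1274 merged regions of the same minimum width that held no coding TSS. Of these, 7.93% were in the H3K4me2 list, which put the coding-promoter domains 33.0 percentage points higher (Newcombe interval 30.2 to 35.6). For H3K4me1 the order was the opposite: 9.18% of the wide regions without a coding TSS were listed, a difference of -5.85 percentage points (-7.72 to -4.11).

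Width classes were then compared in turn. Among coding-promoter regions the share with decreased H3K4me2 was 36.9% at 6000 to 8000 bp, 36.7% at 8000 to 10000 bp, 41.3% at 10000 to 12000 bp, 38.6% at 12000 to 16000 bp, 48.1% at 16000 to 24000 bp and 62.1% of the 95 domains from 24000 bp. There was no step at the 8000 bp limit. In regions without a coding TSS the same classes from 8000 bp upward gave 6.14%, 7.90%, 6.25%, 17.3% and 23.3%. The coding-promoter share with decreased H3K4me1 was 1.16% at 8000 to 10000 bp, 2.81% at 10000 to 12000 bp and 1.83% at 12000 to 16000 bp, then 9.35% at 16000 to 24000 bp and 13.7% from 24000 bp. At 16000 bp or more, 10.7% of both the 309 coding-promoter domains and the 140 regions without a coding TSS were in the H3K4me1 list, and the interval of their difference ran from -6.92 to 5.66 percentage points. The depth of reads in each region is unknown, and its part in the rise with width was not tested.

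**Figure D1:**
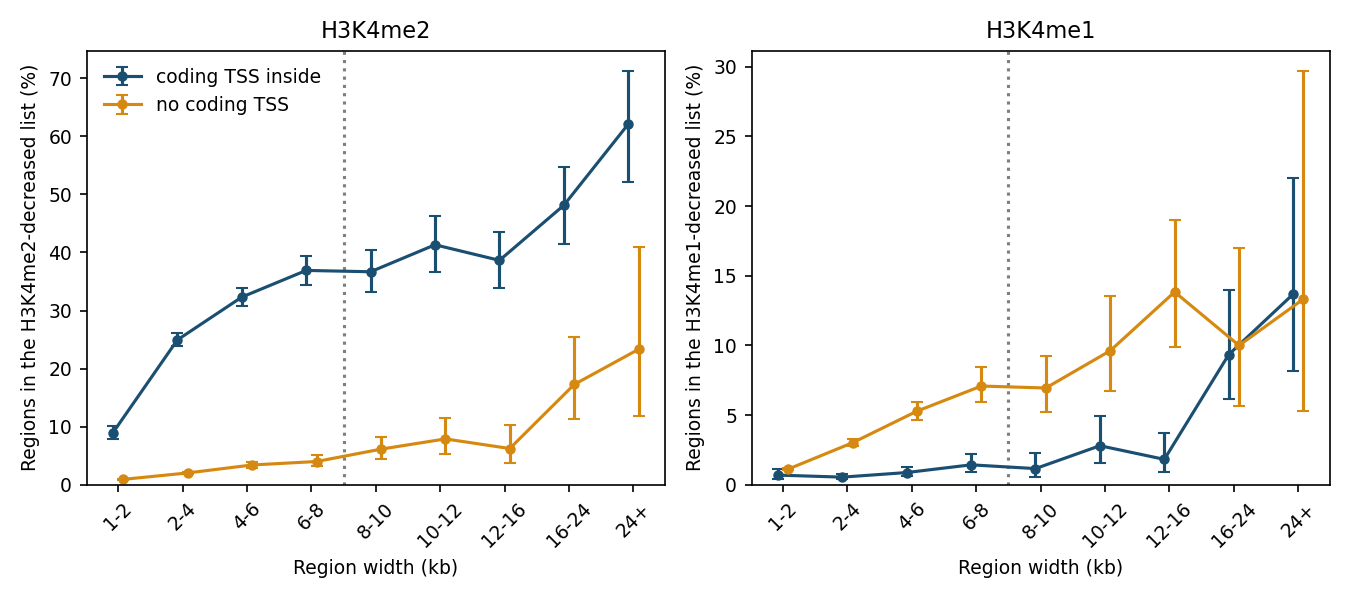
Share of merged regions in the H3K4me2-decreased (left) and H3K4me1-decreased (right) list by region width in kb, for regions with a coding TSS (blue) and without one (orange), with 95% Wilson intervals and a dotted line at the 8000 bp limit. The H3K4me2 share of coding-promoter regions reaches 62.1% from 24000 bp against 23.3% without a coding TSS, while the H3K4me1 shares meet at the widest classes.

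Median width was 10760 bp over all domains. It was 11150 bp for domains with decreased H3K4me2 only, 15820 bp for H3K4me1 only, 23350 bp for both and 10500 bp for neither. Of the 14 domains in both lists, 11 spanned 16000 bp or more (78.6%), as did 48.9% of the H3K4me1-only, 21.3% of the H3K4me2-only and 12.5% of the remaining domains. At the limit, 10 coding-promoter regions were 8000 bp wide, of which 1 had decreased H3K4me2, and 12 were 7980 bp wide, of which 4 did. *Oaz1*, *Sphk1* and *Ston2* lay just inside and *Lrrfip1*, *Sec61g* and *Atp1b2* just outside, and all 6 were in neither list.

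**Figure D2:**
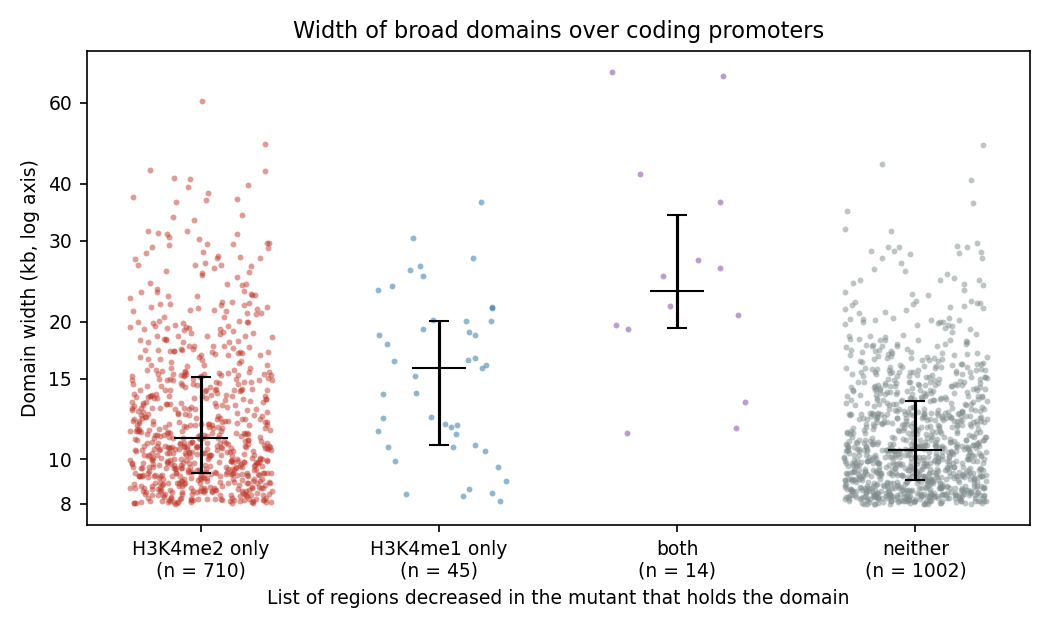
Width of each of the 1771 domains in kb on a log axis, by the decreased list that holds it, with a black bar at the median and whiskers at the quartiles. Medians are 11150 bp for H3K4me2 only, 15820 bp for H3K4me1 only, 23350 bp for both and 10500 bp for neither, and the groups overlap over most of their range.

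In order of width, the domains with decreased H3K4me2 only were led by *Zfpm1* and *Gata4*. *Zfpm1*, which encodes a cofactor of GATA factors in heart and blood, had a domain of 60640 bp (chr8:124797166-124857805) that covered 93.9% of the gene. *Gata4*, a master regulator of cardiac development, had one of 48800 bp (chr14:63845446-63894245), from 3716 bp before the TSS to 45084 bp after it. It was followed by *Igsf3* (an immunoglobulin superfamily member, 42800 bp), *Rreb1* (a zinc finger transcription factor, 42680 bp) and *Igf2r* (a receptor that clears insulin-like growth factor, 41120 bp). *Ank1*, which encodes the ankyrin of the red cell membrane, had 40880 bp. The 10 widest were completed by the transcriptional coactivator *Zmiz1* (39780 bp), the DNA repair gene *Fignl1* (39400 bp), the cardiac and endodermal factor *Gata6* (38180 bp) and the inhibitory Smad gene *Smad7* (37420 bp). At *Fignl1*, 36560 bp of the domain lay upstream of the TSS and 2840 bp downstream.

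The 14 domains in both lists ran mostly downstream of the TSS, with a median of 93.5% of their length there, except at *Bcl9l* (15.4%). *Mical2* had the widest domain of all, at 70000 bp (chr7:119365326-119435325), with 4044 bp before the TSS and 65956 bp after it. *Shb*, an adaptor of receptor tyrosine kinases, had 68860 bp (chr4:45477146-45546005), of which 663 bp lay before the TSS. *Unc5b*, a netrin receptor, had 42060 bp (chr10:60254286-60296345). Other domains in both lists held *Ahdc1* (27240 bp), the guanine nucleotide exchange factor gene *Arhgef17* (26180 bp), *Sec14l1* (25120 bp), the potassium channel gene *Kcnh2* (21580 bp), the Wnt coactivator *Bcl9l* (20640 bp), the RNA-binding protein gene *Cpeb4* (19640 bp), the ligand gene *Bmp7* (19220 bp), *Pon2* (13320 bp), the RNA uridylyltransferase gene *Zcchc6* (11720 bp) and the cyclin gene *Ccnl1* (11440 bp). These 14 domains were 23.7% of the H3K4me1-listed and 1.93% of the H3K4me2-listed domains.

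Many of the 45 domains with decreased H3K4me1 only lay over internal starts. The widest was 36520 bp at *Dab2ip*, a Ras GTPase-activating protein gene (chr2:35523266-35559785), followed by *Ccdc85c* (30440 bp), *Rai1* (27580 bp), a further *Dab2ip* domain (26500 bp), the podosome scaffold gene *Sh3pxd2a* (25900 bp) and the junction protein gene *Plekha7* (25120 bp). *Ahdc1* (23880 bp), the ARF exchange factor gene *Cyth1* (23420 bp), the zinc finger factor *Casz1* (21540 bp) and the T-type calcium channel gene *Cacna1h* (21440 bp) came next. At *Ryr2* the domain spanned 19000 bp, 433 bp before and 18567 bp after the TSS, and so reached 3.35% of a gene of 553843 bp.

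Genes with very wide domains in neither list were also present. They were led by the kinase gene *Map4k4* (48480 bp, chr1:39972706-40021185) and the actin-binding protein gene *Synpo* (44060 bp). Next were the imprinted adaptor gene *Grb10* (40800 bp), the sphingosine 1-phosphate transporter gene *Spns2* (36340 bp), the non-muscle myosin gene *Myh9* (34820 bp), the actin-binding protein gene *Svil* (31920 bp), the transcription factor *Zfhx3* (31560 bp), *Rai1* (29660 bp), *Trim11* (29300 bp) and the kinase gene *Pak4* (29140 bp). At *Map4k4* the domain lay 46090 bp upstream and 2390 bp downstream of an internal start, and a second domain of 10080 bp over the gene's first start was in neither list as well.

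**Figure D3:**
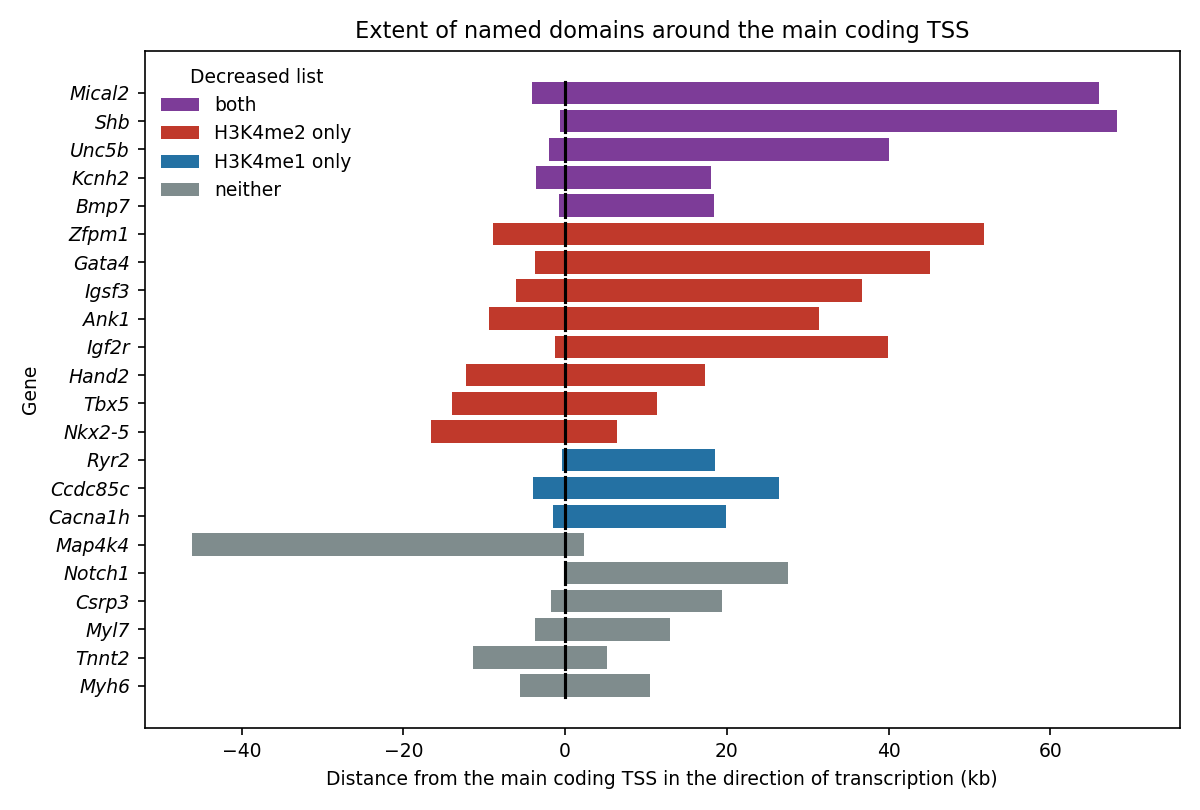
Extent in kb of the widest domain of 22 named genes around the most upstream coding TSS inside it (black line at 0), in the direction of transcription, coloured by decreased list. *Mical2* and *Shb* reach 65956 and 68197 bp downstream, the *Nkx2-5* domain lies mostly upstream (16535 bp), and the *Map4k4* domain lies upstream of an internal start.

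The lists also differed in which TSS lay inside the domain. The most upstream coding TSS of a gene was inside 90.7% of H3K4me2-only domains (interval 88.3% to 92.6%), 79.3% of domains in neither list (76.7% to 81.7%), 13 of the 14 domains in both lists and 53.3% of H3K4me1-only domains (39.1% to 67.1%). Turned around, 44.5% of the 1476 domains with such a TSS and 22.7% of the 295 with internal starts alone were in the H3K4me2 list, against 2.51% and 7.46% in the H3K4me1 list. In domains with 1 coding gene, the median share of length downstream of the TSS was 78.0% for H3K4me2 only, 81.8% for H3K4me1 only, 93.5% for both and 77.5% for neither. All members listed with decreased H3K4me2, in 1 or both lists, differed from those in neither list by 0.829 percentage points in this median, with an interval of -1.23 to 3.30 that included 0. Of the 247 domains that held a whole main gene, 107 (43.3%) were in the H3K4me2 list and none in the H3K4me1 list. Of the 1524 domains with part of the main gene inside, 40.5% and 3.87% were, so the H3K4me2 shares were close.

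Sequence composition differed between the lists. The ratio of observed to expected CpG over the whole domain had a median of 0.397 (quartiles 0.314 and 0.478) for H3K4me2 only, 0.325 (0.259 and 0.402) for neither, 0.286 for both and 0.245 (0.213 and 0.300) for H3K4me1 only. It was 0.219 in wide regions without a coding TSS. H3K4me2-decreased domains exceeded those in neither list by 0.0704 (interval 0.0554 to 0.0844). Within 1 kb of the TSS the medians were 0.708, 0.593, 0.715 and 0.402 in the same order of H3K4me2 only, neither, both and H3K4me1 only. Only 2.68% of H3K4me2-only domains lacked a CpG island-like window (200 bp with GC of at least 50% and a ratio of at least 0.6), against 14.9% for neither and 24.4% for H3K4me1 only. GC content alone ran otherwise, with medians of 47.9% for H3K4me2 only, 50.4% for neither and 51.8% for H3K4me1 only.

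Ranked by the ratio over the whole domain, the share with decreased H3K4me2 rose from 24.8% (interval 21.04% to 29.1%) in the lowest quartile through 32.8% and 46.3% to 59.6% (55.0% to 64.1%) in the highest. The H3K4me1 share ran from 8.13% through 3.85% and 1.13% to 0.226%. Median widths of these quartiles also fell, from 12800 through 11700 and 10400 to 9620 bp. Ranked by the ratio near the TSS, where median widths of the quartiles were 10840, 10860, 10820 and 10560 bp, the H3K4me2 share rose from 19.9% through 37.8% and 48.5% to 57.3%. The H3K4me1 share was then 5.87%, 2.26%, 2.93% and 2.26%. The H3K4me2 difference held on both sides of 16000 bp: below it, 25.6% of CpG-poor and 51.2% of CpG-rich domains were in the H3K4me2 list (split at the median ratio near the TSS), and from 16000 bp on 43.9% and 61.0% were. For H3K4me1 the shares of CpG-poor and CpG-rich domains were 2.88% and 0.683% below 16000 bp. From 16000 bp on they were 9.68% and 11.7%, with overlapping intervals, so the fall with CpG did not hold there. Among CpG-poor domains, 33.3% with the gene's first TSS and 16.02% with internal starts alone were in the H3K4me2 list. Among CpG-rich domains these shares were 53.4% and 46.9%, with overlapping intervals (49.99% to 56.8% and 35.2% to 58.9%).

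**Figure D4:**
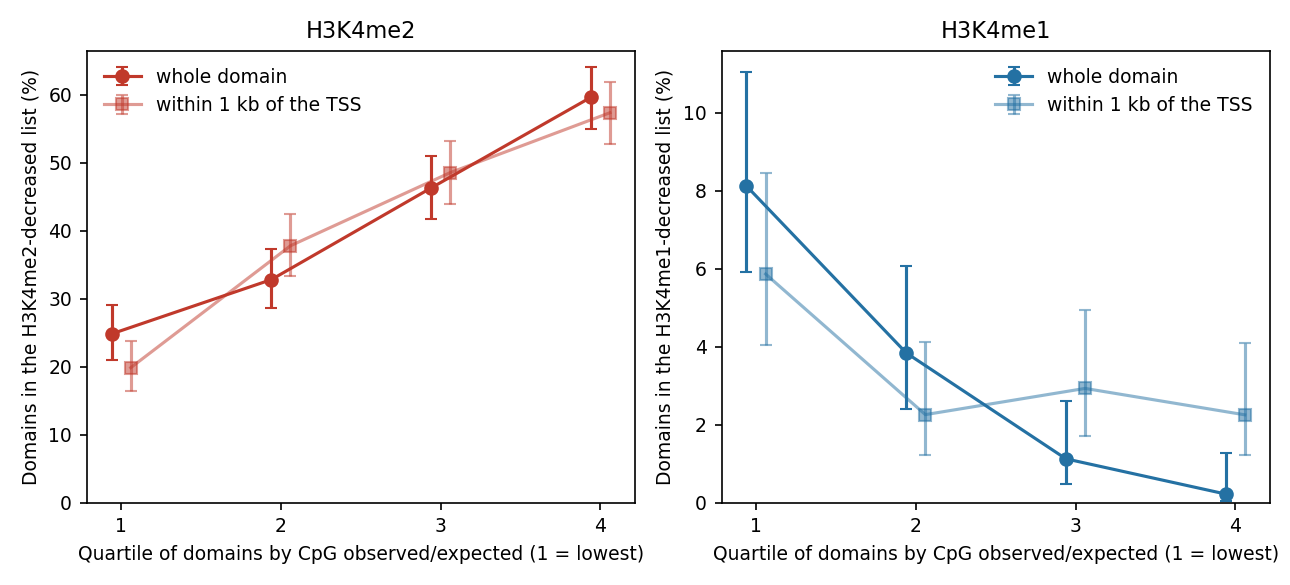
Share of domains in the H3K4me2-decreased (left) and H3K4me1-decreased (right) list by quartile of the CpG observed over expected ratio, over the whole domain (circles) and within 1 kb of the TSS (squares), with 95% Wilson intervals. The H3K4me2 share climbs from 24.8% to 59.6% over the whole-domain quartiles, and the H3K4me1 share goes down from 8.13% to 0.226%. Median width also falls over these quartiles, from 12800 to 9620 bp.

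The extremes of composition followed no single list. The highest ratios were at *Marcks* (0.742, H3K4me2 only), a protein kinase C substrate gene, *Ebf3* (0.728, neither), *Sall1* (0.699, neither), *Bcor* (0.693, H3K4me2 only) and *Skor1* (0.692, neither), of which the last 4 encode transcriptional regulators. The lowest were at *Mob2* (0.0867), *Palld* (0.0971), *Lsp1* (0.105), *Sla* (0.112) and *Rxra* (0.114), all in neither list.

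Cardiac transcription factors and contractile genes differed in their counts. The factor list shares *Zfpm1* with the blood factors and *Hey1* and *Hey2* with the Notch genes. All 26 listed core cardiac factors had a TSS in a merged region and 23 of them in a broad domain, of which 18 had decreased H3K4me2 and 0 decreased H3K4me1. *Gata4* (48800 bp), *Gata6* (38180 bp), *Hand2* (29560 bp), *Tbx2* (28400 bp), *Tbx5* (25320 bp), *Nkx2-5* (22900 bp), *Gata5* (21700 bp) and *Tbx20* (20820 bp) were among the 18. *Foxp1* (12260 bp), *Mef2c* (12100 bp), *Myocd* (10900 bp), *Tbx3* (9380 bp) and *Prdm16* (9380 bp) were in neither list. Of the 15544 genes with a coding TSS in a merged region, 2027 had it in a broad domain. Over all 2027 genes with a broad domain, 44.9% were in the H3K4me2 list and 2.71% in the H3K4me1 list. Of 27 sarcomere and Z-disc genes, which build the contractile apparatus, 16 had a broad domain and 3 of these had decreased H3K4me2: tropomyosin *Tpm1* (16300 bp), cardiac actin *Actc1* (12960 bp) and the ventricular light chain gene *Myl2* (9520 bp). *Xirp1* (9940 bp), an actin-binding protein of the intercalated disc, had decreased H3K4me1. The other 12 were in neither list, among them *Csrp3* (21140 bp), *Myl7* (16680 bp), *Tnnt2* (16540 bp) and *Myh6* (16060 bp).

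Width and CpG content moved with this contrast. Domains of the cardiac factors had a median width of 16180 bp and a median CpG ratio near the TSS of 0.733, and those of the sarcomere genes 12370 bp and 0.205. The *Hand2*, *Nkx2-5* and *Tbx2* domains covered the whole gene and much of its surroundings, with 12274, 16535 and 15847 bp upstream of the TSS. Of domains of 16000 bp or more, 12 of 13 at cardiac factors and 1 of 5 at sarcomere genes were in the H3K4me2 list. Over all 309 domains of this width the share was 52.4%. The part of width and CpG content in the difference between the gene lists was not tested. The Cre driver uses the *Tnnt2* promoter, and the *Tnnt2* domain itself was in neither list.

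Calcium handling and ion transport genes, which set the cardiac action potential and the calcium transient, were mixed. Of 30 genes, 13 had a broad domain, 5 of them with decreased H3K4me2 and 2 with decreased H3K4me1, 1 of which counted in both. The 30 also include natriuretic peptide genes and their processing protease gene, none of which had a broad domain. The phospholamban gene *Pln* (21180 bp), the junctophilin gene *Jph2* (11860 bp) and the calcium pump gene *Atp2a2* (11060 bp) had decreased H3K4me2 only, *Ryr2* (19000 bp) decreased H3K4me1 only and *Kcnh2* (21580 bp) both. The H3K4me2 share of 38.5% was close to the 44.9% of all genes with a domain, and 2.71% of those were in the H3K4me1 list. The pacemaker channel gene *Hcn4* (17120 bp) was in neither list.

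Markers of the other cell types of the heart were counted in the same way. Of 22 endothelial and endocardial markers, 7 had a broad domain and 2 were in the H3K4me2 list, *Tal1* (21060 bp) and *Fli1* (9320 bp), while *Nfatc1* (15820 bp), *Kdr* (11440 bp) and *Cdh5* (10240 bp) were in neither. Of 19 epicardial and mesenchymal markers, 9 had one and 2 were in the H3K4me2 list, *Vcan* (10380 bp) and *Twist1* (8860 bp), while *Wt1* (12160 bp) and *Pdgfrb* (11500 bp) were not. Of 10 erythroid markers, 4 had one and 3 were in the H3K4me2 list, among them the embryonic globin gene *Hba-x* in a domain of 23160 bp shared with *Nprl3* and the transcription factor *Nfe2* (12940 bp), while the anion exchanger gene *Slc4a1* (21940 bp) was in neither. None of these markers was in the H3K4me1 list, which held 2.71% of all genes with a domain. The shares of endothelial (28.6%) and epicardial (22.2%) genes in the H3K4me2 list were below that of all genes with a domain, and the share of erythroid genes (3 of 4) was above it, on 7, 9 and 4 genes. The number of each cell type in the pools, and its part in the listed calls, was not tested.

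Because blood genes appeared among the widest domains, 3 further lists were counted, chosen after the values were seen. Of 16 genes of the red cell membrane skeleton and blood groups, 14 had a broad domain and 9 were in the H3K4me2 list, led by *Ank1* (40880 bp), *Tmcc2* (33740 bp) and *Epb4.1* (29120 bp). *Tmcc2* belongs to neither kind of gene, and without it 8 of 13 were listed. *Epb4.9* (12280 bp) and *Rhag* (10160 bp) were among the 5 that were not. Of 18 haem synthesis and iron genes, 10 had one and 5 were listed, among them the mitochondrial iron importer gene *Slc25a37* (36920 bp) and *Alad* (31140 bp), which encodes an early enzyme of haem synthesis. Of 15 blood transcription factors, 9 had one and 6 were listed, among them *Zfpm1* and *Foxo3* (36440 bp). The shares in the H3K4me2 list were 64.3%, 5 of 10 and 66.7%, against 44.9% of all genes with a domain, and these lists were prompted by wide domains.

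Clustered histone genes supply histones during DNA replication. Of 67 such genes, 41 lay in 12 broad domains, and these 41 were in the H3K4me2 list and none of them in the H3K4me1 list. A further 18 had their TSS in narrower merged regions, 11 of them in the H3K4me2 list. By region, 24.9% of coding-promoter regions of 2000 to 4000 bp and 32.3% of those of 4000 to 6000 bp were in that list. The list of histone genes was chosen after the values were seen. The widest clusters were *Hist1h3c* with 4 further histone genes (16920 bp, chr13:23829526-23846445), the *Hist1h2bp* cluster of 4 genes (15280 bp) and the *Hist1h4i* cluster of 5 (13400 bp, chr13:22124946-22138345). Reads of near-identical histone genes may not be placed with certainty. Their median CpG ratio over the domain was 0.533, above the 0.346 of all domains. Since neighbouring genes share a domain, the 12 domains and not the 41 genes are the units. Over all 1771 domains, 40.9% were in the H3K4me2 list and 3.33% in the H3K4me1 list.

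**Figure D5:**
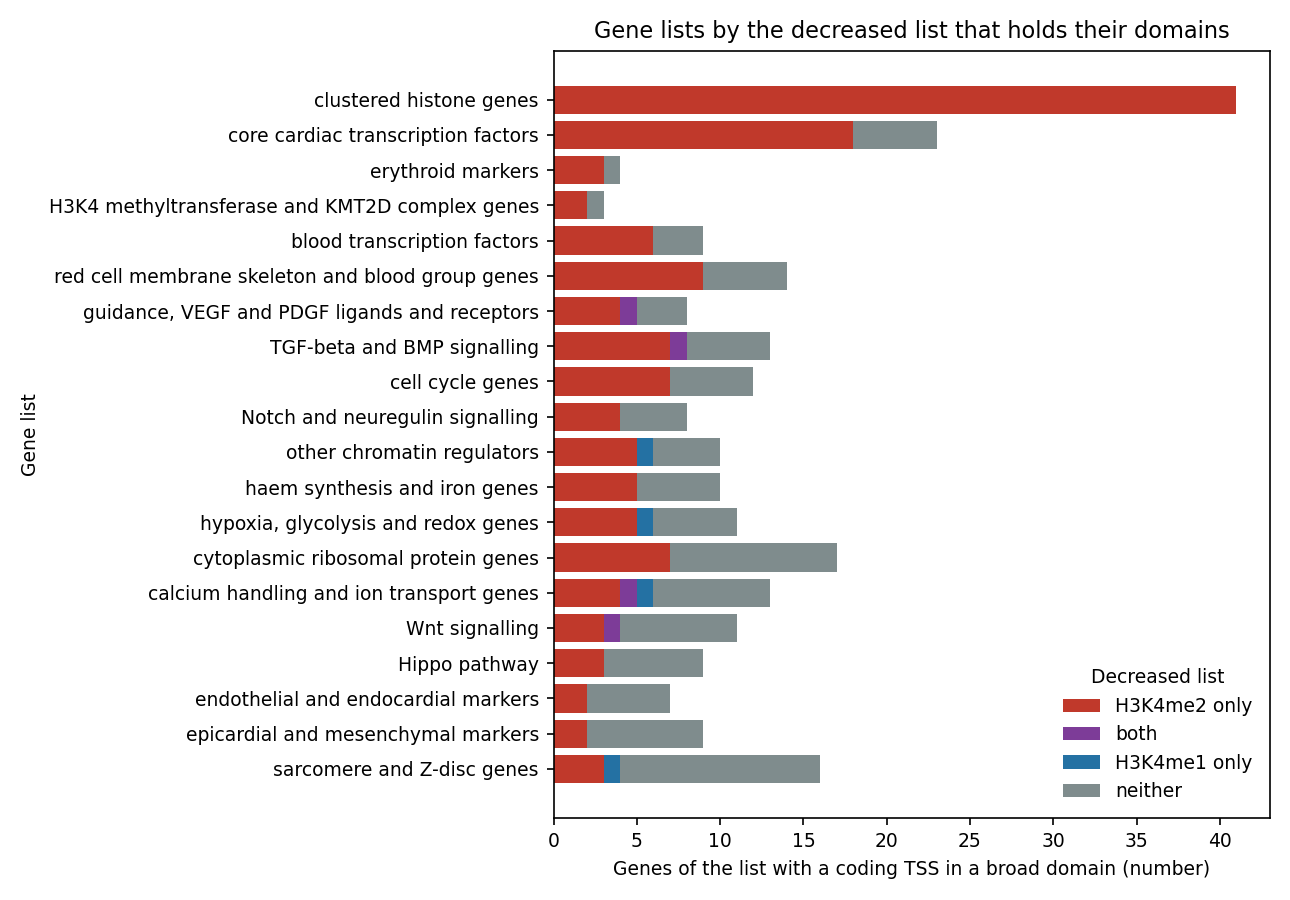
Number of genes with a coding TSS in a broad domain for 20 gene lists, coloured by the decreased list of the domain and ordered by the share in the H3K4me2 list; a gene may stand in more than 1 list. The 41 clustered histone genes with a broad domain, which lie in 12 domains, and 18 of 23 core cardiac factors are in the H3K4me2 list. So are 3 of 16 sarcomere genes and 44.9% of all genes with a domain.

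Signalling genes are given by pathway, from ligands to targets. In TGF-beta and BMP signalling, 13 of 24 genes had a broad domain, 8 with decreased H3K4me2. The ligand gene *Bmp7* (19220 bp) was in both lists and *Tgfb1* (12080 bp) in the H3K4me2 list, while *Bmp10* (12060 bp) and *Tgfb2* (8300 bp) were in neither. The receptor genes *Bmpr1a* (13580 bp) and *Tgfbr1* (13260 bp) were in neither list. Among the Smads, which carry the signal to the nucleus or inhibit it, *Smad7* (37420 bp), *Smad3* (28160 bp), *Smad6* (16460 bp) and *Smad2* (8660 bp) all had decreased H3K4me2, and so did the targets *Id2* (12980 bp) and *Id3* (11540 bp) but not *Id1* (11560 bp). In Wnt signalling, 11 of 22 genes had a broad domain and 4 were in the H3K4me2 list. These were the nuclear effectors *Bcl9l* (20640 bp, in both lists), *Tcf7l2* (18740 bp) and *Ctnnb1* (13520 bp), and the kinase gene *Gsk3b* (10100 bp). The ligand gene *Wnt11* (10100 bp) and the receptor genes *Fzd7* (13560 bp), *Fzd4* (12820 bp) and *Fzd2* (10440 bp) were in neither, and so were the nuclear effector *Lef1* (9040 bp), the target *Axin2* (10960 bp) and the coreceptor gene *Lrp5* (9200 bp). Against the 44.9% of all genes with a domain, the H3K4me2 shares were 61.5% for TGF-beta and BMP and 36.4% for Wnt.

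In Notch and neuregulin signalling, 8 of 17 genes had a broad domain and 4 were in the H3K4me2 list. They were the ligand gene *Jag1* (11860 bp) and the targets *Hes1* (14200 bp), *Hey2* (9080 bp) and *Hey1* (8860 bp), while the ligand gene *Dll4* (8200 bp) and the receptor genes *Notch1* (27560 bp), *Notch2* (8360 bp) and *Erbb2* (8100 bp) were in neither. Of 24 guidance, VEGF and PDGF genes, 8 had a broad domain and 5 were in the H3K4me2 list: *Unc5b* in both lists, *Nrp1* (23200 bp), *Efnb2* (18960 bp), *Vegfa* (11840 bp) and *Fgfr2*, with a TSS in a domain of 17100 bp whose main gene was *Ctbp2* and a second domain of 10000 bp in neither list. *Plxnd1* (22140 bp) and *Sema6a* (18520 bp) were in neither. Of 16 Hippo pathway genes, 9 had one and 3 were listed, *Tead1* (24120 bp for the widest of 3 domains, of which 1 was listed), *Vgll4* (11160 bp) and *Mob1b* (10140 bp). The H3K4me2 shares were 4 of 8 for Notch and neuregulin, 62.5% for guidance and 33.3% for Hippo genes, against 44.9% of all genes with a domain.

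Cell cycle genes had a broad domain in 12 of 27 cases, 7 of them with decreased H3K4me2. *Stradb* (26480 bp, a domain shared with *Trak2*), *Cdkn1b* (12660 bp), *E2f2* (11700 bp) and *E2f3* (11600 bp) were in that list, and *E2f4* (12120 bp, shared with *Elmo3* and *Exoc3l*) and the cyclin gene *Ccne2* (10020 bp) were in neither. Of 21 hypoxia, glycolysis and redox genes, 11 had one and 5 were in the H3K4me2 list, with the hexokinase genes *Hk2* (20040 bp) and *Hk1* (19540 bp) the widest. The lactate dehydrogenase gene *Ldha* (8980 bp) had decreased H3K4me1, and the glucose transporter gene *Slc2a1* (28140 bp) was in neither list. Of 25 other chromatin regulators, 10 had one and 5 were in the H3K4me2 list, among them the remodeler gene *Chd7* (31580 bp) and *Hdac5* (27580 bp), and the DNA methyltransferase gene *Dnmt3a* had 1 domain with decreased H3K4me1 and 1 in neither list. Of 17 genes of the MLL family, other H3K4 methyltransferases, H3K4 demethylases and the KMT2D complex, 3 had a broad domain. *Mll5* (30260 bp) and *Setd1b* (14940 bp) were in the H3K4me2 list and *Mll1* (18220 bp) was in neither. The *Mll5* domain was shared with *5031425E22Rik*, and 25393 bp of it lay upstream of the *Mll5* TSS. Against 44.9% of all genes with a domain, the H3K4me2 shares were 58.3% for cell cycle, 45.5% for hypoxia, glycolysis and redox genes and 5 of 10 for chromatin regulators.

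Of a list of 12 genes named by the study with a decreased mark, 6 had a broad domain. They were chosen on these samples, so their direction is not independent evidence. *Stradb* (26480 bp, with *Trak2* as the domain's main gene), *E2f2* (11700 bp) and the glutathione peroxidase gene *Gpx1* (8540 bp) had decreased H3K4me2, *2900026A02Rik* (10440 bp) decreased H3K4me1 and *Bcl9l* (20640 bp) both. *Gse1* had 2 broad domains, the wider of 23440 bp, and both were in neither list.

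Some genes held several broad domains. There were 95 genes with 2 or more and 12 with 3 or more. All 3 domains of *Casz1* (21540, 19300 and 17860 bp) and all 3 of *Dab2ip* (36520, 26500 and 20100 bp) were in the H3K4me1 list only. *Ahdc1* had 1 in both lists and 1 with decreased H3K4me1 only, and *Rai1* had 1 with decreased H3K4me2, 1 with decreased H3K4me1 and 1 in neither. *Gata4* had a second domain of 16180 bp over an internal start in neither list. Another H3K4me1-decreased region lay within 50 kb of 53.3% of H3K4me1-only domains (interval 39.1% to 67.1%) and of 27.4% of domains in neither list (24.8% to 30.3%). For H3K4me2 the matching shares were 45.2% of H3K4me2-only domains and 43.2% of domains in neither list, with overlapping intervals.

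Most domains, 1471, held 1 coding gene, 255 held 2 and 45 held 3 or more. The share with decreased H3K4me2 was 38.9% with 1 gene (interval 36.4% to 41.4%), 49.4% with 2 (43.3% to 55.5%) and 57.8% with 3 or more (43.3% to 71.0%). Only 1 of the 59 H3K4me1-listed domains held more than 1 gene. The domains with most genes were 3 histone clusters of 5 genes each, all with decreased H3K4me2 only. Of the 12 domains with 4 genes, 8 were in the H3K4me2 list and 4 in neither. The widest of these were the *Alad* domain with *Hdhd3*, *Pole3* and *4933430I17Rik* (31140 bp) and the *Midn* domain with *Atp5d*, *Cirbp* and *Dos* (28900 bp), both with decreased H3K4me2 only, and the widest in neither list was the *Mvp* domain with *Maz*, *Prrt2* and *2900092E17Rik* (22200 bp).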

How the data were processed

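ChIP-Seq was performed by the authors on 24 heart libraries (3 control and 3 mutant pools for input, H3K4me1, H3K4me2 and H3K4me3). Per the labels, reads were placed on mm9, and CASAVA 1.8.2, FastQC, Bowtie, Bowtie2 and SAMtools were among the tools named in the submitters' processing notes. The peak caller, its settings and the test were not given in the sources used here. The deposited lists hold region positions, with no read count, fold change or score: the authors' merged peaks of all 3 marks, and the merged regions with decreased H3K4me1 or H3K4me2 at a false discovery rate below 0.1 as the study gives it. Because they hold positions only, depth per library and per region is unknown, replicates are pooled, and the control and mutant groups, taken from sample titles, could not be compared sample by sample. The deposited H3K4me2 list, of 6699 regions, is not equal in size to the count the study states, so the exact cutoff behind the list is uncertain.

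Coding TSS came from GENCODE vM1 on NCBIM37, the same assembly as mm9, and a TSS position had to lie inside a region. A domain counted as decreased when it was identical to a region of a decreased list, which held for all decreased regions. Regions had widths in steps of 20 bp. Shares are given with 95% Wilson intervals and differences with Newcombe intervals, and intervals of differences between medians combine binomial rank intervals. No chance test was made over regions. The domains, gene lists and comparisons were chosen with earlier results of these data known, and lists of blood and histone genes were added after the values were seen. Genes were named by rule: the 10 widest domains in all and in each class (for domains in both lists, also the narrower ones), the 5 domains with most genes, the 5 highest and 5 lowest CpG ratios, the 3 on each side of the width limit, 2 to 4 genes per list, widest first in each class, and those of 12 genes listed as named by the study beside a decreased mark that had a broad domain. Further members of the gene lists were named after their values were seen. A few of these genes are left unnamed but stand in the counts. Python 3.11.15, NumPy 2.4.6, SciPy 1.17.1 and matplotlib 3.10.9 were used, and the functions were tested on simulated regions with known answers. Alternatives were other width limits (6000 and 12000 bp), most upstream starts alone, a TSS at least 500 bp inside, overlap of 1 bp, weighting by base pairs, counting each gene once, CpG within 1 kb, and leaving out blood and histone domains.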

Additional observations from a re-analysis of the deposited data

How the results depend on the processing

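Of 34 values under alternatives to the 6 results, 22 stayed within the interval of the reported value, 10 moved outside it and 2 turned sign. The 22 include the values under overlap of 1 bp, which repeated the reported ones exactly. That alternative could not give other values, because the listed positions already matched merged regions in full. Its values are therefore no evidence of stability. The percentage of domains in the H3K4me2 list was 44.8% at 12000 bp or more, 44.5% with most upstream starts alone and 44.0% weighted by base pairs. The percentage in the H3K4me1 list was 5.78% at 12000 bp, 2.47% at 6000 bp, 2.51% with most upstream starts and 5.07% by base pairs. Both differences from the wide comparison regions stayed within their intervals under all 6 alternatives, of which overlap of 1 bp could not change them. With most upstream starts alone, or a TSS at least 500 bp inside, the comparison regions also took in wide regions with other coding TSS. The values under these alternatives are therefore not differences from regions without a coding TSS. The downstream share, H3K4me2-decreased minus neither, was 3.62 percentage points at 12000 bp, -0.207 with most upstream starts and -2.18 with each gene counted once, and its interval included 0 throughout, so no direction is claimed. The CpG difference was 0.0526 at 12000 bp and 0.115 within 1 kb of the TSS. The causes were not tested. Leaving out the 48 domains with blood or histone genes, of which 33 were in the H3K4me2 list, an alternative chosen after seeing the data, gave 40.1% for H3K4me2 and 3.42% for H3K4me1. No paired analysis was possible because the lists pool the replicates and hold no value per sample. No replicate was left out, for the same reason. With depth unknown, a domain outside a list is not shown to be unchanged.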

Other observations

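Gene families outside the heart programme are given as values. Of 31 developmental transcription factors of other tissues, 30 were annotated under the symbols used, and all 30 had a coding TSS in a merged region. Of these, 0 had it in a broad domain and 2 in narrower regions with decreased H3K4me2. Over all genes, 2027 of 15544 with a coding TSS in a merged region had it in a broad domain. Of coding-promoter regions of 2000 to 4000 bp, 24.9% were in the H3K4me2 list. Of 39 Hox cluster genes, 34 had a TSS in a merged region and 2, *Hoxb2* and *Hoxb3*, shared a broad domain of 14960 bp in neither list. Of 76 cytoplasmic ribosomal protein genes, 17 had a broad domain and 7 of these were in the H3K4me2 list (41.2%, against 44.9% of all genes with a domain), among them *Rps15a* (13740 bp) and *Rpl24* (11200 bp), while *Rpl7a* (12900 bp) and *Rps3* (12580 bp) were in neither.

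The share of domains with decreased H3K4me2, 40.9% over all domains, was also counted by chromosome. It was highest on chromosome 3, at 57 of 95 domains (interval 49.9% to 69.3%), and on chromosome 13, at 58.5% of 65 (46.3% to 69.6%). Among chromosomes with more than 10 domains it was lowest on chromosome 7, at 29.9% of 137 (22.9% to 38.1%). Of the 12 domains with clustered histone genes, 9 lay on chromosome 13 and 2 on chromosome 3. Their part in the shares of these chromosomes was not tested. Chromosome X held 6 domains, of which 1 was listed.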
